A study of Mus musculus with 6 samples.

Results

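The tripartite motif (TRIM) family was followed in mouse melanoma tumours grown in hosts with and without Stat2. Members were taken as every gene whose annotated symbol is Trim followed by a number and an optional letter, each represented by its brightest probe set that names no other gene. This gave 63 members among 22180 genes. Of the 68 such symbols in RefSeq, the remaining 5, Trim5, Trim34b, Trim60, Trim61 and Trim65, shared all their probe sets with another gene and carried no value of their own.

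B16-F1 is a pigmented melanoma cell line of C57BL6 origin. Its cells were implanted at the flank of Stat2 KO mice or of WT mice, both on a C57BL6 background and with no other treatment labelled. Tumours were taken at day 20, and the submitters state that those in Stat2 KO mice grew larger. RNA of 3 tumours from Stat2 KO hosts and 3 from WT hosts was hybridised to 1 Affymetrix array each. Stat2 KO here describes the mouse, and no label gives the implanted cells a Stat2 deletion. Neither the age of the mice nor whether each tumour had a mouse of its own is given. The p-values therefore measure the spread between these 6 tumours. All 8 melanocyte markers examined, among them Pmel, Tyr and Dct, had mean levels of at least 9.27 on the log2 scale. The level of Stat2 was 6.42 ± 0.077 in tumours of Stat2 KO hosts, against 6.73 ± 0.053 in tumours of WT hosts (SD, n = 3 each).

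Most TRIM proteins carry a RING finger, which can give ubiquitin ligase activity, followed by B-boxes, a coiled coil and a variable C-terminal domain. Some act in innate immunity, either on the sensors of viral nucleic acid or on the virus itself, and a number of these genes are induced by type I interferon. Others repress transcription, organise microtubules or turn over muscle proteins. STAT2 is part of the complex ISGF3, which forms after type I interferon and binds the interferon-stimulated response element (ISRE). The comparison asks how far expression of the family in a tumour depends on Stat2 in the host.

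The ISRE was written here as GAAANNGAAA, which reads TTTCNNTTTC on the opposite strand, and both forms were searched in RefSeq promoter windows of 300 bases, from 250 before to 50 after a start site (GRCm38.p6). Such letters stood in 3.99% of the 27025 genes with a window. They stood in 8 of the 49 members with a window, or 16.3%, and 7 of these 8 belong to the 14 members classed here as interferon-linked. The windows below are shown because they hold the letters that a STAT2 complex is known to read. Capitals mark the ISRE letters, every sequence runs 5′ to 3′ on the strand of the gene, and Trim5 is included for its likeness although it had no probe set of its own.
Trim21 at chr7:102565453-102565494, minus strand: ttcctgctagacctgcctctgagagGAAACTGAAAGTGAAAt
Trim34a at chr7:104244442-104244486, plus strand: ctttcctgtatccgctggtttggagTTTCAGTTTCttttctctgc
Trim5 at chr7:104288121-104288180, minus strand: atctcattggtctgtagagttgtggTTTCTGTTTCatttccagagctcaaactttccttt
Trim12a at chr7:104315466-104315510, minus strand: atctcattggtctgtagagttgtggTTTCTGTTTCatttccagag
Trim12c at chr7:104353344-104353403, minus strand: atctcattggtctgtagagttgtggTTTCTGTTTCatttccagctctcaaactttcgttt
Trim30a at chr7:104465195-104465254, minus strand: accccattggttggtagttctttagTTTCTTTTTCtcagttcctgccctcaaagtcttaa
Trim30a, other start, at chr7:104446096-104446148, minus strand: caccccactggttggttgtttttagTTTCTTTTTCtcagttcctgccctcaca
Trim30d at chr7:104507856-104507915, minus strand: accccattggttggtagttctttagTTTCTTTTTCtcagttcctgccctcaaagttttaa
Trim26 at chr17:36836961-36837026, plus strand: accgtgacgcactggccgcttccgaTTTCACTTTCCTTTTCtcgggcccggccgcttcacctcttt

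The sequences fall into families, and each measured copy was counted as a gene of its own in the share above. Over 60 bases aligned on the motif, Trim12a and Trim5 differed at 0 bases, Trim12c differed from each of them at 3, and the first Trim30a window differed from Trim30d at 1. The window at the other start of Trim30a differed from Trim30d at 15 bases and from the first at 14. Trim21 and Trim26 each held 2 overlapping matches. The remaining member with a match was Trim2, whose letters lay from 28 to 37 bases after its start site. Trim25, Trim56, Trim14, Trim6, Trim38, Trim30b and Trim30c had no match or no listed window, which says nothing about sites elsewhere. A match of letters does not show that a factor binds.

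No TRIM gene passed the test between the hosts once p-values were adjusted over all genes. With limma and Benjamini-Hochberg adjustment over all genes, 0 of the 63 members had an adjusted p under 0.05, against 0.00902% of all genes (2 of 22180), and the smallest adjusted p of a member was 0.509. The family was split as the array was. Members were lower in Stat2 KO hosts in 29 cases and higher in 34, so 46.0% were lower, as were 46.0% of all genes. The median log2 difference, taken as Stat2 KO hosts minus WT hosts throughout, was 0.018 for the members and 0.021 for all genes. After median centring of the arrays 63.5% of members and 58.7% of all genes were lower.

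Before adjustment, 5 members had a limma p under 0.05. The 2 that were lower, Trim25 and Trim8, compare with 3.48% of all genes, and the 3 that were higher, Trim46, Trim16 and Trim58, with 5.34%. For 2 members, Trim25 and Trim27, the highest Stat2 KO tumour was still under the lowest WT tumour, against 5.11% of all genes. The reverse held for 4 members, Trim16, Trim46, Trim50 and Trim58, against 8.23% of all genes. These shares among 63 members are near those of the whole array.

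The differences were small. None of the 63 exceeded 0.5 on the log2 scale, 47 were under 0.2, and 7 exceeded 0.3, which is 11.1% of members and 15.1% of all genes. The 95% interval of the difference, taken gene by gene without adjustment, lay within 1 log2 unit of 0 for all 63 members and within 0.5 for 33. A change of more than 2-fold in array signal, in either direction, thus lay outside the interval of each member. For dim members, whose signal may be mostly background, this does not bound a change of the transcript.

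**Figure D1:**
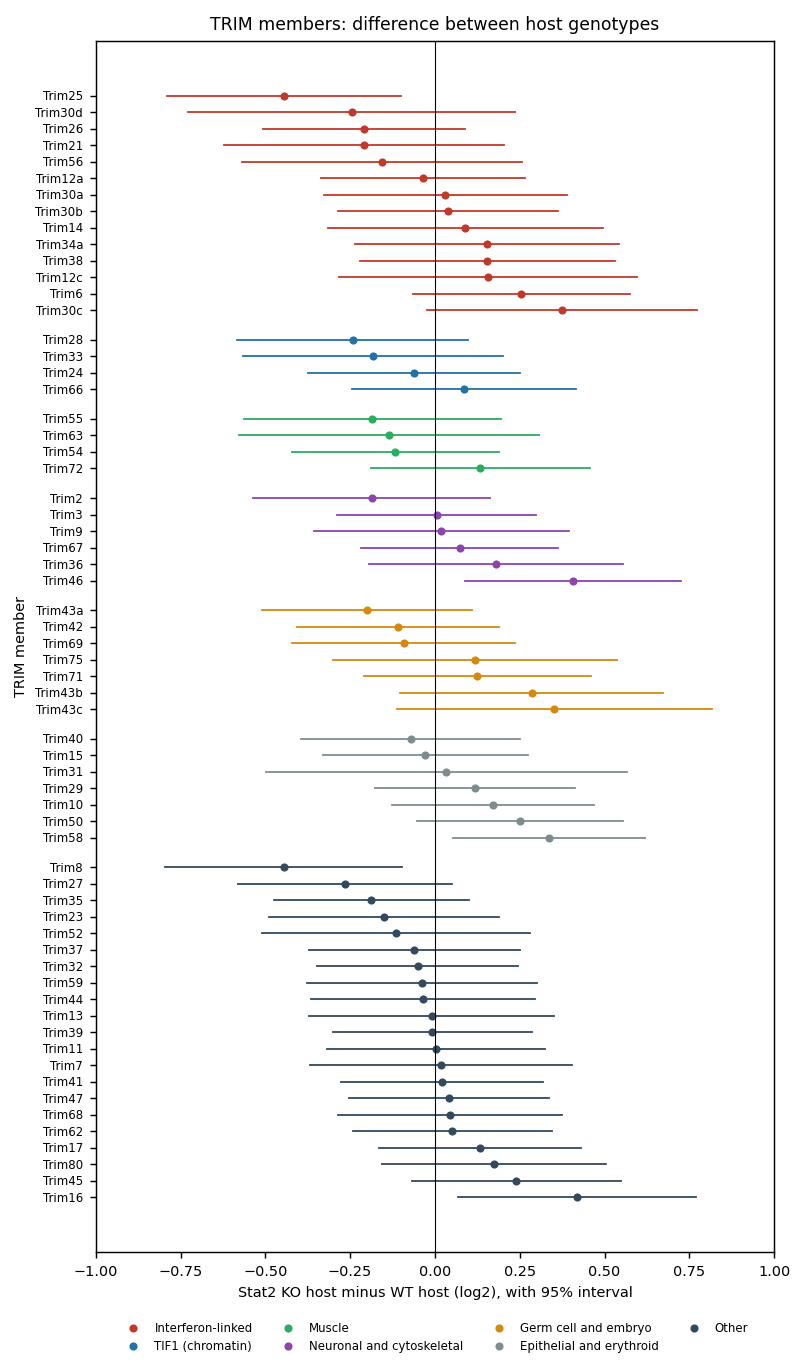
Difference of each of the 63 TRIM members between hosts, in log2 units, Stat2 KO hosts minus WT hosts (horizontal axis), with points for the estimate and lines for its unadjusted 95% interval from limma, ordered by size within each role. Trim25 and Trim8 lie lowest at -0.45 and Trim16 highest at 0.42, and no interval reaches 1 log2 unit.

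Differences depended on how bright a gene was, so genes were ordered by mean level into 10 bins of nearly equal size and each member was set beside the other genes of its bin. The median difference of other genes was 0.12 in bin 3 (levels 5.44 to 5.77) and -0.12 in bin 9 (7.72 to 8.49). TRIM members followed that slope. Of the 29 members brighter than the median gene, 18 were lower, or 62.1%, as were 65.3% of other genes above that level. Of the 34 dimmer members 11 were lower, or 32.4%, against 26.6% of other genes. Against the median of their own bin, 32 members were lower and 31 higher. By the same yardstick 6 members lay under the 10th percentile of their bin and 4 above the 90th.

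**Figure D2:**
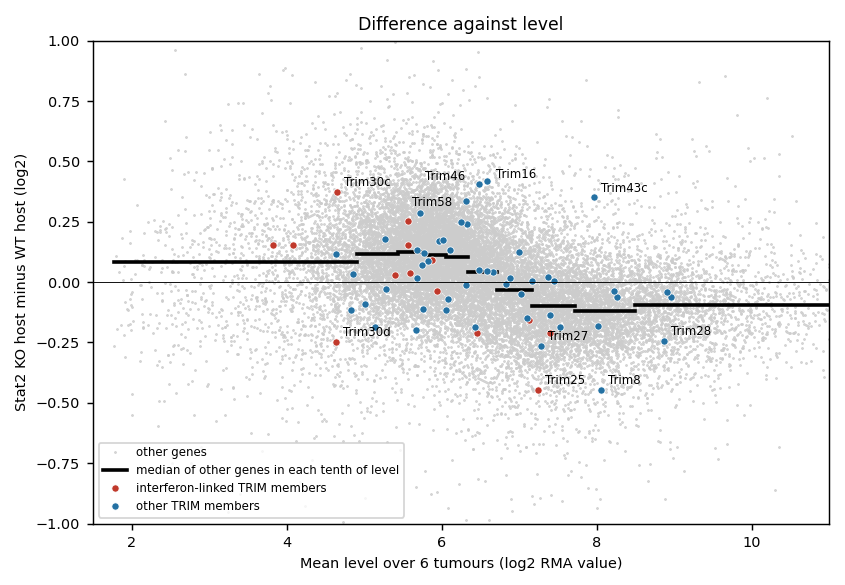
Difference between hosts (vertical axis, log2) against mean level over the 6 tumours (horizontal axis, log2 RMA value) for TRIM members (large points) and other genes (grey points), with a black bar for the median of other genes in each bin of level. The axes leave out 144 other genes, and the members scatter about bars at 0.12 in bin 3 and -0.12 in bin 9.

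Levels ranged from 3.83 for Trim12c to 8.96 for Trim37 on the log2 RMA scale. Signals of different probe sets also depend on the probes, so this order is one of signals and not of transcripts. The brightest were Trim37, a centrosome-linked ligase, Trim59, the corepressor Trim28, Trim24 and Trim44, with mean levels of 8.96, 8.91, 8.87, 8.26 and 8.22. The dimmest were Trim12c, Trim38, Trim30d, Trim75 and Trim30c, at 3.83, 4.08, 4.63, 4.64 and 4.65. No detection calls were used here, and olfactory receptor genes, which act in the nose, served as a rough guide to background. Their median level was 5.21 over 1088 genes. In both groups 53 members read above it, and for 8 members neither group did. Only 22 members were above 6.73, the 95th percentile of olfactory receptors, in both groups.

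Interferon-linked members are described by brightness, and whether bright and dim ones differ was not tested. The 4 above the median gene level, Trim25, Trim26, Trim56 and Trim21, were all lower in Stat2 KO hosts, with a median difference of -0.21. Of the 10 dimmer ones 2 were lower and 8 higher, with a median of 0.12. Among other genes, 65.3% of those above the median gene level were lower, and 26.6% of the rest. After subtraction of the median of each gene's bin, the medians were -0.19 for the 4 and 0.0026 for the 10. The 14 together had a median of 0.035, and after subtraction of the median of each gene's bin it was -0.086. After a further quantile normalization and after cyclic loess 9 of the 14 were lower, after median centring 8 and with array weights 3, against 6 as deposited. None passed the adjusted threshold, and 1, Trim25, had groups that did not overlap.

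Trim25 is the ligase that ubiquitinates the RNA sensor RIG-I and is itself induced by interferon. It read 7.23, 6.72 and 7.10 in the Stat2 KO tumours, against 7.51, 7.31 and 7.57 in the WT tumours. Every Stat2 KO tumour lay below every WT tumour, with the widest gap from the group in Stat2 KO replicate 2. The difference was -0.45 (SE 0.158, limma adjusted p = 0.509), or 26.6% lower. Of the genes of its bin 3.53% were lower still. Without Stat2 KO replicate 2 the difference was -0.30. It was negative under all 15 alternatives, and the adjusted p ranged from 0.152 to 0.917.

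Trim26, which lies in the MHC region and acts on IRF3, had the ISRE letters shown above. It read 7.45, 7.20 and 7.21 in the Stat2 KO tumours, against 7.63, 7.44 and 7.42 in the WT tumours. The groups overlapped only through Stat2 KO replicate 1, and the difference was -0.21 (SE 0.137). Trim21, a cytosolic receptor for antibody, read 6.53, 5.997 and 6.51 in Stat2 KO tumours, against 6.62, 6.21 and 6.84 in WT tumours. Replicate 2 was the lowest tumour of each group and the groups overlapped, with a difference of -0.21 (SE 0.190). Leaving out Stat2 KO replicate 2 gave -0.035 for Trim21, leaving out the lowest WT tumour gave -0.38, and array weights gave 0.022. Trim56, a ligase linked to STING signalling, read 7.28, 6.62 and 7.24 in Stat2 KO tumours, against 7.40, 6.94 and 7.26 in WT tumours. Its difference of -0.16 (SE 0.190) was 0.055 without Stat2 KO replicate 2.

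**Figure D3:**
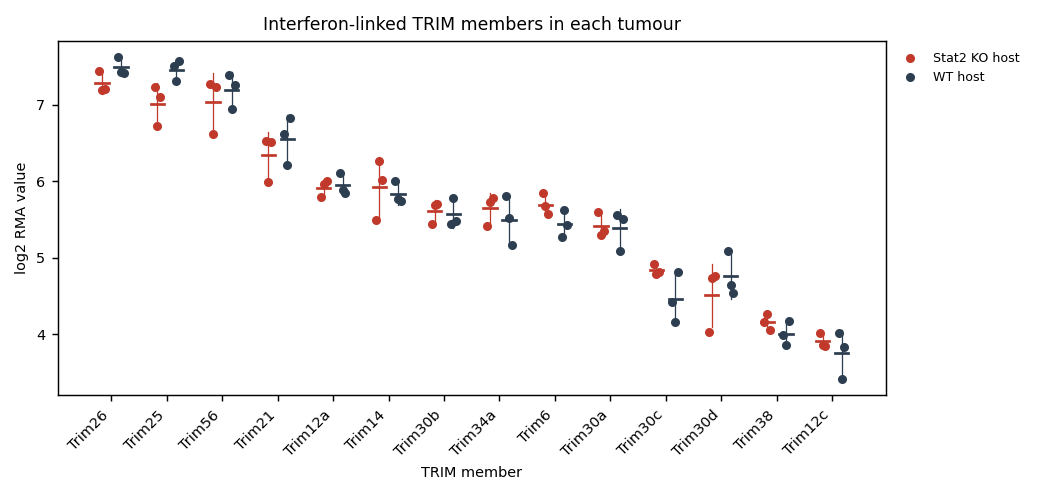
Values of the 14 interferon-linked TRIM members in each tumour (vertical axis, log2 RMA value), with points for tumours, wide bars for group means and thin lines for 1 SD (n = 3 each), in order of mean level. Trim25 is the member with separated groups, and the dim members from Trim12a onward overlap between Stat2 KO hosts and WT hosts.

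The genes next to each other on chromosome 7 from Trim6 to Trim30d include the murine relatives of primate TRIM5, a restriction factor of retroviruses. Of the 8 measured there 2 were lower and 6 higher, with a median of 0.096, or -0.028 after subtraction of the median of each bin. Their mean levels ran from 3.83 to 5.93, below the median gene. Close paralogs in this run can hybridise to each other's probe sets, so the values cannot be assigned to a copy with certainty.

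Trim30a, which restrains Toll-like receptor signalling in mouse by degrading TAB2 and TAB3, read 5.60, 5.30 and 5.35 in Stat2 KO tumours, against 5.56, 5.09 and 5.51 in WT tumours. The groups overlapped, with the highest value in Stat2 KO replicate 1 and the lowest in WT replicate 2, and the difference was 0.031 (SE 0.164), with values from -0.12 to 0.12 when single tumours were left out. Trim30d, whose promoter window is nearly that at the first start of Trim30a, read 4.04, 4.74 and 4.76 in Stat2 KO tumours, against 5.09, 4.64 and 4.54 in WT tumours. Its difference of -0.25 (SE 0.222) was -0.0090 without Stat2 KO replicate 1. Trim30c read 4.92, 4.78 and 4.81 in Stat2 KO tumours, against 4.42, 4.16 and 4.81 in WT tumours. WT replicate 3 lay within the Stat2 KO values, and the difference was 0.37 (SE 0.183, limma adjusted p = 0.585). It was 0.22 without WT replicate 2 and 0.55 without WT replicate 3. Both Trim30c and Trim30d stayed below the olfactory receptor median in both groups. Trim30b differed by 0.039 (SE 0.149).

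Trim12a read 5.79, 5.96 and 5.999 in Stat2 KO tumours, against 6.11, 5.89 and 5.85 in WT tumours, a difference of -0.035 (SE 0.138). Trim12c, the dimmest member, differed by 0.16 (SE 0.202). The 2 probe sets that name both Trim12c and Trim5 differed by -0.014 and 0.031. Trim34a read 5.42, 5.74 and 5.79 in Stat2 KO tumours, against 5.80, 5.52 and 5.16 in WT tumours, a difference of 0.15 (SE 0.179), and its groups overlapped. The probe set shared by Trim34a and Trim34b differed by 0.064. Trim6, at the start of the run, differed by 0.25 (SE 0.147), and its 3 Stat2 KO tumours read 5.84, 5.67 and 5.57, against 5.28, 5.62 and 5.43 in WT tumours. WT replicate 2 lay among the Stat2 KO values. Trim6, Trim30b and Trim30c are the members of this run whose windows held no ISRE letters.

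Of the other interferon-linked members, Trim14, an adaptor of the mitochondrial antiviral protein MAVS, differed by 0.090 (SE 0.187) and by -0.023 after cyclic loess. Trim38, an inhibitor of inflammatory signalling, read 4.16, 4.26 and 4.06 in Stat2 KO tumours, against 3.99, 3.86 and 4.17 in WT tumours, and differed by 0.15 (SE 0.173).

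The 8 members with ISRE letters had a median difference of -0.11, with 5 lower and 3 higher, and their range was -0.25 to 0.16. The 41 members whose windows held none had a median of 0.018, with 20 lower and 21 higher and a range of -0.45 to 0.41. After subtraction of the bin medians, the medians were -0.13 for the 8 and 0.00021 for the 41. All 8 values of the first set lay within the range of the other. A range over 41 members is wide, so this does not compare the sets, and whether they differ was not tested. The lowest value among members with a window, Trim25, had none of these letters in it. Letters of the interferon gamma element GAS, TTCNNNGAA, stood in 6 of the 49 members' windows, or 12.2%, against 9.55% of all genes.

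**Figure D4:**
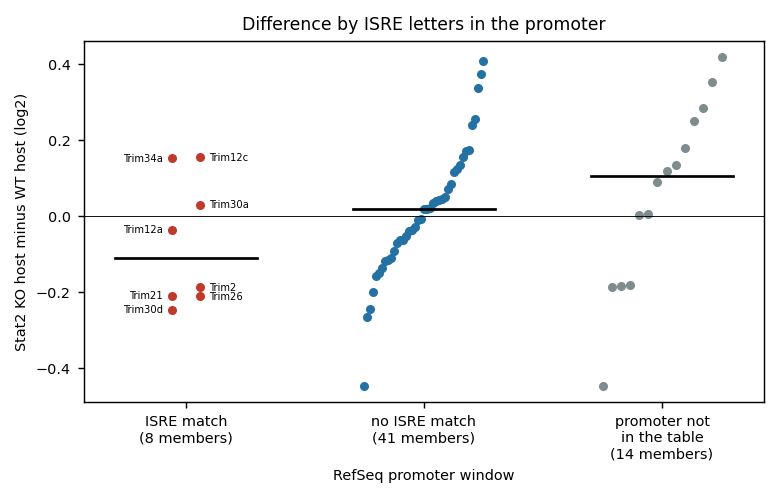
Difference between hosts (vertical axis, log2) of TRIM members whose RefSeq promoter window holds ISRE letters, of those whose window holds none, and of those for which the table lists no window, with a bar for the median of each set. The 8 members with a match spread from -0.25 to 0.16, inside the range of the 41 without.

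Other genes of the interferon response are given for comparison. Of 18 type I interferon genes examined, 15 were measured, and all 15 were lower in Stat2 KO hosts, with a median of -0.32 and 0 past the adjusted threshold. The largest was Cmpk2, a mitochondrial nucleotide kinase, at -0.91 (SE 0.159, limma adjusted p = 0.204). Rsad2 and Ifit1, an antiviral enzyme and a binder of viral RNA, differed by -0.73 (SE 0.181) and -0.59 (SE 0.178). The list holds Stat2, whose direction the genotype bears on, and without it 14 of 14 were lower, with a median of -0.34. Of the 14 interferon-linked TRIM members 6 were lower, against 46.0% of all genes. These 14 were dimmer, with a median level of 5.58 against 6.58 for the 15 type I genes. After subtraction of the bin medians, the median differences were -0.086 for the 14 and -0.36 for the 15. Whether the lists differ was not tested, and the genes of both lists had been seen in earlier results of these data. Of 13 measured interferon gamma genes 12 were lower, with a median of -0.69 and 1, Cxcl9, past the threshold. Over all genes 46.0% were lower and 0.00902% (2 of 22180) passed the threshold.

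All 10 measured macrophage markers were lower, against 46.0% of all genes, and 0 passed the adjusted threshold with limma. Of the 10, 5 were lower with an unadjusted limma p under 0.05, against 3.48% of all genes. The mean level of the 10 markers ran from 6.28 to 6.53 in Stat2 KO tumours and from 6.67 to 6.96 in WT tumours. Among them C1qb was at -0.95 (SE 0.162). Of the 10 markers 4 had a mean level above 6.73, the 95th percentile of olfactory receptors, and the dimmest was Fcgr1 at 5.92. Their part in the values of Trim25, Trim26, Trim21 and Trim56 was not tested. In whole tumours fewer cells of a type and less RNA per cell cannot be told apart.

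Genes of the proteins with which these TRIM ligases work were mostly lower by small amounts. Of 19 partners and targets 17 were measured, 16 of them lower and 1 higher, with a median of -0.16 and 0 past the threshold. Most are bright genes, at a median level of 7.70, where other genes were lower too, and after subtraction of the bin medians the median was -0.089. Zc3hav1, an antiviral RNA-binding protein that uses TRIM25 as a cofactor, had the smallest p, with -0.46 (SE 0.190, limma adjusted p = 0.537). Tab2, a target of Trim30a, differed by -0.35 (SE 0.161) and Tbk1, the kinase of IRF3, by -0.35 (SE 0.184). The RIG-I gene Ddx58 differed by -0.13 (SE 0.202), and Isg15 was the 1 higher gene at 0.028. The mean level of Isg15 was 5.15, under the olfactory receptor median of 5.21. Family members under other names were also examined. Pml, the organiser of nuclear bodies, differed by -0.20 (SE 0.133), the microtubule-linked Mid1 and Mid2 by -0.014 and -0.34, and Mefv, which encodes pyrin, by 0.057. None of these 4 passed the threshold or had separated groups.

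The TIF1 group regulates transcription through chromatin. Trim28, the corepressor of KRAB zinc finger proteins, read 9.02, 8.65 and 8.56 in Stat2 KO tumours, against 8.97, 9.15 and 8.85 in WT tumours. Stat2 KO replicate 1 lay within the WT values and the other Stat2 KO tumours below them. The difference was -0.24 (SE 0.156, limma adjusted p = 0.655), where the median of its bin was -0.095. Trim33, a ligase for SMAD4, and Trim24, a nuclear receptor cofactor that acts on p53, differed by -0.18 (SE 0.176) and -0.062 (SE 0.143). Trim33 was at -0.36 without Stat2 KO replicate 1 and at -0.060 without WT replicate 1. Trim66, a testis-enriched relative, differed by 0.086 (SE 0.151). The groups overlapped for all 4.

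Trim8, which acts on the cytokine inhibitor SOCS1 and on NF-kB signalling, had a difference close to that of Trim25. It read 8.15, 7.73 and 7.61 in Stat2 KO tumours, against 8.31, 8.39 and 8.14 in WT tumours. The groups touched, with Stat2 KO replicate 1 just above WT replicate 3. The difference was -0.45 (SE 0.160, limma adjusted p = 0.509), and 3.57% of the genes in its bin were lower still. After quantile normalization it was -0.33. It passed the adjusted threshold when arrays were weighted by their quality, at -0.61 (limma adjusted p = 0.0497), and its adjusted p reached 0.911 over the alternatives. That weighting gave Stat2 KO replicate 3 and WT replicate 2 weights of 2.48 and 2.25 and every other array less than 1, and 257 genes of the array then passed.

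Trim27, a ligase linked to endosomal sorting and to NF-kB, read 7.37, 6.91 and 7.16 in Stat2 KO tumours, against 7.37, 7.47 and 7.40 in WT tumours. The groups were separated by a narrow margin and the difference was -0.26 (SE 0.145, limma adjusted p = 0.616). Its other probe set, dimmer at 6.54, differed by -0.046. Without Stat2 KO replicate 2 the difference was -0.15.

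Trim46, Trim16 and Trim58 had the lowest p-values among members higher in Stat2 KO hosts. Trim46, which bundles microtubules in the axon, read 6.51, 6.82 and 6.73 in Stat2 KO tumours, against 6.23, 6.48 and 6.12 in WT tumours, a difference of 0.41 (SE 0.147, limma adjusted p = 0.509). Trim16, which takes part in the autophagy of damaged lysosomes, read 6.63, 6.93 and 6.84 in Stat2 KO tumours, against 6.47, 6.60 and 6.07 in WT tumours. Its groups did not overlap and the difference was 0.42 (SE 0.161, limma adjusted p = 0.522). It was 0.26 without WT replicate 3, the lowest tumour. A probe set that names both Trim16 and Fbxw10 differed by -0.047.

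Trim58, a ligase of late erythroblasts, read 6.33, 6.58 and 6.52 in Stat2 KO tumours, against 6.14, 6.16 and 6.13 in WT tumours. The WT values were tight, with an SD of 0.016, and the difference was 0.34 (SE 0.130, limma adjusted p = 0.522). Only 3 of 8 erythroid markers had a probe set of their own. Of these, Slc4a1, Epb42 and Klf1 differed by 0.38, 0.13 and -0.021, and their mean level ran from 5.82 to 5.90 in Stat2 KO tumours and from 5.64 to 5.80 in WT tumours. Thus 2 of these 3 markers were higher, as Trim58 was. Their median was 0.13, but 0.0086 after subtraction of the bin medians, and their part in the value of Trim58 was not tested. Trim50, a gene of gastric parietal cells, read 6.25, 6.59 and 6.27 in Stat2 KO tumours, against 6.06, 6.11 and 6.18 in WT tumours, a difference of 0.25 (SE 0.140, limma adjusted p = 0.617).

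**Figure D5:**
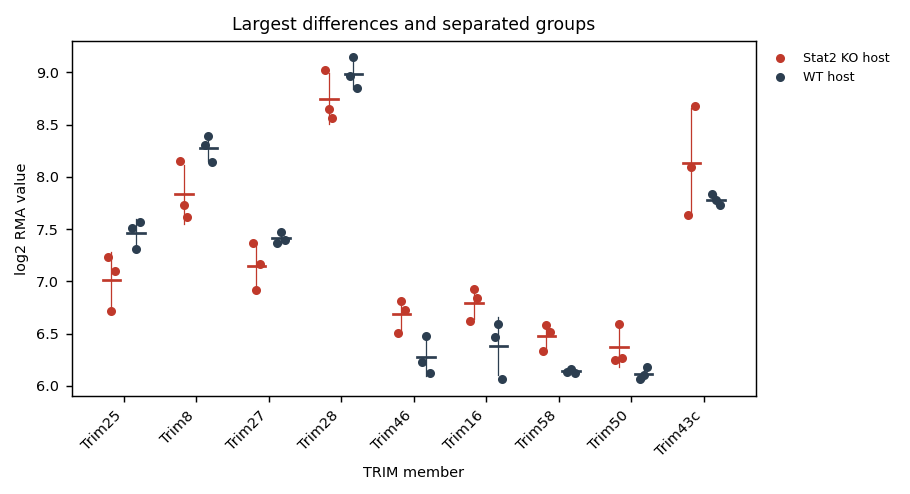
Values in each tumour (vertical axis, log2 RMA value) of 9 TRIM members with the largest differences or with separated groups, with points for tumours, wide bars for group means and thin lines for 1 SD (n = 3 each). Trim25 and Trim27 are lower in every Stat2 KO tumour, Trim46, Trim16, Trim58 and Trim50 are higher in every one, and Trim43c rests on a Stat2 KO tumour at 8.68.

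The muscle members were lower in 3 of 4 cases. Trim63, Trim55 and Trim54 encode the MuRF ligases of the sarcomere and Trim72 a protein of membrane repair. Trim63 read 7.79, 6.85 and 7.34 in Stat2 KO tumours, against 7.30, 7.51 and 7.57 in WT tumours, so that the Stat2 KO group enclosed the WT group, and the difference was -0.14 (SE 0.203). Trim55 and Trim54 differed by -0.18 (SE 0.174) and -0.12 (SE 0.140), and Trim72 by 0.13 (SE 0.148). The other probe set of Trim54 differed by 0.28. Of 10 skeletal muscle markers 2 were lower, or 20.0%, and 8 were higher. Among other genes at or below the median gene level of 6.33, 26.6% were lower, but the brightest marker, at 6.66, lay above that level. The smallest p was that of Myh4, at 0.60 (SE 0.142, limma adjusted p = 0.351). For 2 of the 10, Myh4 and Tnnt3, every Stat2 KO tumour lay above every WT tumour, against 8.23% of all genes. The median of the 10 was 0.13, and 0.024 after subtraction of the bin medians. The mean muscle marker level ran from 5.90 to 6.15 in Stat2 KO tumours and from 5.84 to 5.97 in WT tumours. None of the 10 had a mean above 6.73, the 95th percentile of olfactory receptors, and Trim63, at 7.39, was the muscle member above that level.

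Germ cell and embryo members gave 3 lower and 4 higher of 7, with a median of 0.12, or 0.034 after subtraction of the bin medians. Trim43c, of a family active in the early embryo, read 7.64, 8.09 and 8.68 in Stat2 KO tumours, against 7.84, 7.78 and 7.73 in WT tumours. The WT tumours lay within the Stat2 KO range, and the difference of 0.35 (SE 0.213, limma adjusted p = 0.637) was 0.081 without Stat2 KO replicate 3. Trim43a and Trim43b differed by -0.20 (SE 0.142) and 0.28 (SE 0.178), with overlapping groups. Trim75, a dim testis gene, differed by 0.12. Neuronal and cytoskeletal members were lower in 1 of 6, with a median of 0.045, or 0.057 after that subtraction. Neuronal markers were higher in 7 of 8, with a median of 0.14, or 0.092 after subtraction of the bin medians. Epithelial and erythroid members were lower in 2 of 7, with a median of 0.12 that became -0.0049 after subtraction of the bin medians. Of 9 measured keratinocyte markers 6 were higher, with a median of 0.045 that became -0.066 after the same subtraction. The part of these markers was not tested.

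Of the 5 brightest members, Trim28 and Trim24 are described above. Trim37 read 9.05, 8.71 and 9.03 in Stat2 KO tumours, against 9.08, 8.996 and 8.90 in WT tumours, a difference of -0.061 (SE 0.143). Trim59 and Trim44 differed by -0.039 (SE 0.156) and -0.036 (SE 0.152). These 3 differences turned positive after quantile normalization. The 21 members without a shared role, these 3 and Trim8, Trim16 and Trim27 included, had 11 lower and 10 higher and a median of -0.0078.

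Tumours of the same host also differed from each other. Stat2 KO replicate 2 held the highest value of 21 members and the lowest of 13. Over all genes that array was the highest for 5893 and the lowest for 5037. The median SD of a member within a group was 0.181, against 0.185 for all genes. The median size of the members' differences was 0.134, against 0.139 for all genes. The SD is that of single tumours and the differences are between means of 3, so these values are not on the same footing. Members with another probe set of their own were Trim7, Trim27, Trim34a, Trim42 and Trim54. For Trim42 and Trim54 the 2 probe sets had opposite signs, -0.11 and 0.17 for Trim42 and -0.12 and 0.28 for Trim54, and for Trim7 they gave 0.018 and 0.29.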

How the data were processed

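The authors deposited log2 values for every probe set of each array. The submitters' processing notes name RMA and Affymetrix Expression Console 1.3.1 as the tools. The table holds 41345 probe sets, of which 23521 name 1 gene in the platform annotation, 1814 name several and 16010 are unnamed there. Symbols were checked by gene identifier in RefSeq, where 23328 matched and 0 changed. No source used here names a genome build for the array. Promoter windows are RefSeq's (GRCm38.p6), and 49 of the 63 members matched one by symbol.

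Each gene took its brightest probe set among those naming only that gene. Tests were limma 3.58.1 (R 4.3.3) with lmFit and eBayes with an intensity trend over all 22180 genes, two-sided, with Benjamini-Hochberg adjustment and a threshold of 0.05. Residual degrees of freedom were 4 and prior degrees of freedom 8.14. The procedure was tested on simulated data. Arrays correlated at 0.964 to 0.986 across genes, 0 pairs were identical, and their medians over probe sets were 6.08 to 6.22 in Stat2 KO hosts and 6.06 to 6.13 in WT hosts. The number of arrays limits the precision. Dim probe sets were kept.

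Members and lists were chosen with earlier results of these data known, so lists are described by counts and medians and were not tested. Roles were assigned by textbook function. Named were all interferon-linked, TIF1 and muscle members, the 5 largest differences each way, the 5 highest and 5 lowest levels, and members with an unadjusted p under 0.05 and separated groups. Trim2, Trim7, Trim42, Trim43a, Trim43b and Trim50 were named besides, after their values were seen, as were Ddx58, Isg15, Fcgr1, Pmel, Tyr and Dct of the other lists, of which the rule names Stat2, TRIM-family genes and the smallest p-values. Alternatives were quantile normalization, median centring, cyclic loess, a level filter, the mean of probe sets, eBayes without trend or robust, array weights, a replicate block, an adjusted threshold of 0.1, the GAS motif, and each tumour left out.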

Additional observations from a re-analysis of the deposited data

How the results depend on the processing

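The count of TRIM members past an adjusted p of 0.05 was 0 with all alternatives except array weights, where Trim8 passed and the count was 1, and it was 0 at a threshold of 0.1. Counts at an unadjusted p under 0.05 were 5 as deposited (7.9% of members, 8.8% of all genes) and 13 with array weights (20.6% and 22.6%). With single tumours left out they ran from 1 without Stat2 KO replicate 2 (1.6% and 6.6%) to 9 without Stat2 KO replicate 1 (14.3% and 14.7%). The replicate block left that count at 5 (7.9% of members, 11.2% of all genes) and changed no call among the members. The replicate numbers were not taken as pairs because no label says that they mark a shared litter, batch or day. Deviations of same-numbered tumours correlated at 0.24, 0.079 and 0.030, which does not settle whether they were paired. Over all genes there were 2 adjusted calls as deposited, 0 after quantile normalization, 1 after cyclic loess or without the intensity trend, 3 with the block, 257 with array weights and 0 to 17 with single tumours left out, most without WT replicate 3. The members' median was -0.048 after median centring and -0.051 for the 29 members above the median gene, 18 of them lower. The interferon-linked median was -0.083 after quantile normalization, -0.086 after cyclic loess and -0.21 for the 4 above the median gene.

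Of 464 repeats for 32 named members, 419 kept their sign and their side of the threshold, 44 changed sign and 1, Trim8 with array weights, passed the threshold. Signs were taken from rounded differences. Trim30b without Stat2 KO replicate 2, slightly negative before rounding, was thus counted among those that kept their sign. After quantile normalization Trim14 was at -0.010, Trim24 at 0.062, Trim30a at -0.089, Trim30b at -0.077, Trim37 at 0.035, Trim44 at 0.087, Trim59 at 0.062 and Trim66 at -0.031. After cyclic loess they were -0.023, 0.055, -0.090, -0.082, 0.053, 0.080, 0.076 and -0.029, in the same order. Median centring gave -0.036 for Trim30a and -0.027 for Trim30b, and the mean of all probe sets 0.080 for Trim54. Array weights gave 0.024 for Trim12a, 0.022 for Trim21, 0.0010 for Trim44, 0.049 for Trim56 and 0.14 for Trim59. Leaving out a tumour moved the difference of 26 of the 32 by over 1.5 times, all but Trim6, Trim8, Trim25, Trim26, Trim46 and Trim58. The ranges that crossed 0 were -0.087 to 0.046 for Trim12a, -0.014 to 0.28 for Trim12c, -0.079 to 0.31 for Trim14, -0.18 to 0.0090 for Trim24, -0.12 to 0.12 for Trim30a, -0.022 to 0.14 for Trim30b, -0.013 to 0.31 for Trim34a, -0.12 to 0.050 for Trim37, -0.16 to 0.055 for Trim44, -0.29 to 0.055 for Trim56, -0.15 to 0.096 for Trim59, -0.37 to 0.10 for Trim63 and -0.041 to 0.20 for Trim66. The cause of these shifts was not tested. Dim probe sets limit what can be said of the chromosome 7 members.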
